A study of Mus musculus with 2 samples.

Results

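The CCN genes encode secreted matricellular proteins, which sit in the extracellular matrix and signal to cells without building it. The genes examined were *Nov* (CCN3), *Ctgf* (CCN2), *Cyr61* (CCN1), *Wisp1* (CCN4) and *Wisp2* (CCN5), found by their symbol in the deposited table. Of the 5 genes, 4 had a row among the 18043 rows with a gene symbol, and *Wisp2*, which had none, was not analysed here. The set was chosen because *Nov* had one of the highest ratios between the circumvallate papillae and the epithelium, so the levels and ratios of the members are a description and were not tested. The genes were chosen by the RPKM values of these same 2 libraries. *Wisp3* (CCN6), the remaining gene of the family, also had a row and is given beside the members.

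The study compared gene expression in the circumvallate papillae (CvP), the taste bud-bearing structures at the back of the mouse tongue, with expression in tongue epithelium without papillae (Epi), to find candidate salt receptor genes. There was 1 library per tissue. Each was made from poly(A) RNA pooled from at least 20 male C57BL/6J mice aged 12 to 30 weeks and fed normal chow. No replicate exists within a tissue, so the comparisons are of 2 libraries and carry no p-value. Expression is given as RPKM, the reads on a gene's exon model scaled by its length and by the mapped reads of the library. The steps between the lowest RPKM values put the depth at about 28375286 mapped reads in the CvP against 27910121 in the Epi. From this depth and the gene's length the reads behind each value were estimated, and each ratio has a 95% exact (Clopper-Pearson) interval that covers counting error only.

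CCN proteins share a modular plan, with an insulin-like growth factor binding module, a von Willebrand factor type C module, a thrombospondin module and, in all but *Wisp2*, a cystine knot at the C terminus. They bind integrins and heparan sulfate proteoglycans at the cell surface and also growth factors. *Ctgf* and *Cyr61* are classical targets of the co-activator YAP and its TEAD transcription factors, the nuclear effectors of the Hippo pathway, and of serum. *Ctgf* is also induced by TGF-beta. *Wisp1* and *Wisp2* were named as genes induced by Wnt1, and *Nov* after its overexpression in nephroblastoma.

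Where 2 RPKM values of a gene stand side by side, the CvP value comes first. The family was split between the tissues. *Nov* and *Ctgf* were the highest CCN transcripts of the papilla, *Cyr61* was the highest CCN transcript of the epithelium, and *Wisp1* was listed at 0 in both. *Nov* reached 78.33 RPKM in the CvP against 0.02 in the Epi. *Ctgf* reached 33.94 against 0.36. *Cyr61* went the other way, at 1.2 against 3.20. In bulk tissue, fewer cells that express a gene and less RNA per cell cannot be told apart.

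**Figure D1:**
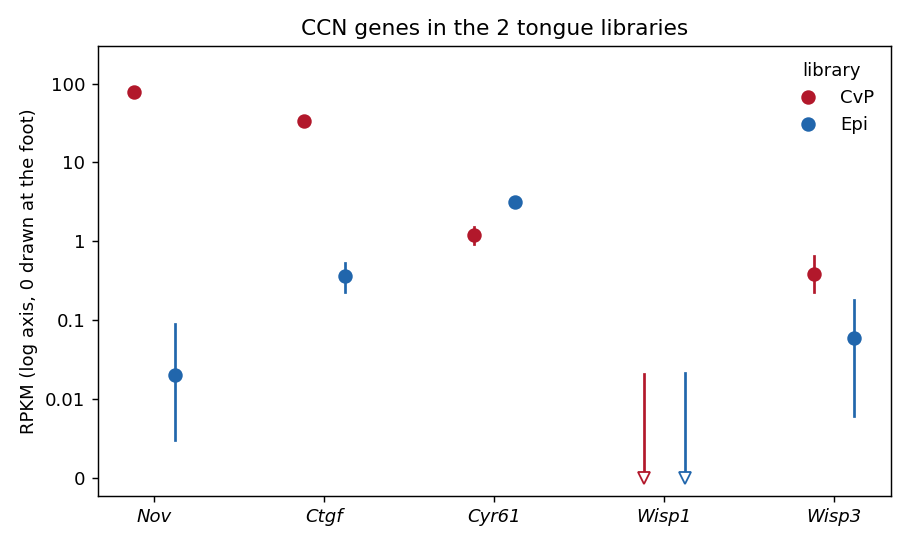
RPKM (log axis, 0 drawn at the foot) of the 4 CCN genes with a row and of *Wisp3*, in the CvP (red) and Epi (blue) libraries. Bars are 95% exact Poisson intervals from estimated reads, triangles mark genes listed at 0 with a bar up to the worth of 3 reads, and *Nov* and *Ctgf* are highest in the CvP while *Cyr61* is highest in the Epi.

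On NCBI37/mm9, *Nov* occupies chromosome 15 from 54577483 to 54585316 on the plus strand. Its coding transcript in GENCODE M1, Nov-001, has 5 exons and 2869 spliced bases, and no other annotated gene overlaps it. The CvP value of 78.33 stands for about 6377 reads and has an exact Poisson interval from 76.4 to 80.3 RPKM. It put *Nov* at number 563 of the gene rows, above 96.9% of them. The Epi value of 0.02 stands for about 2 reads, with an interval from 0.00302 to 0.0902 RPKM. *Nov* was thus among the more abundant transcripts of the papilla library and close to the detection limit in the other.

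The quotient of the deposited values was 3920, and its interval ran from 868 to 25900. The width comes from the Epi side. The table gives RPKM to 2 decimals, so an Epi value between 0.015 and 0.025 would print alike, and the quotient could lie between 3133 and 5222 from rounding alone. The table lists an exon model of 5315 bases for *Nov*, 1.85 times the spliced transcript. If reads were counted over that length they would be about 11813 in the CvP against 3 in the Epi, and the interval would run from 1320 to 18800. The size of the ratio is therefore poorly fixed, while the intervals of the 2 levels lie far apart.

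Among the 5450 gene rows with a CvP RPKM above 10 and an Epi RPKM above 0, *Nov* was number 3 by ratio. Another 24 gene rows with a CvP RPKM above 10 were listed at 0 in the Epi. They have no finite ratio and are not in this order. The genes above it were *Mme*, the peptidase neprilysin, at 55.11 and 0.01 RPKM, and *Gnat3*, the taste G protein gustducin, at 127.11 and 0.03. Those just below were *Trpm5*, the cation channel of taste transduction, at 37.8 and 0.01, and *Lgr5*, a receptor found on stem cells, at 31.31 and 0.01. *A2m*, a protease inhibitor, followed at 21.4 and 0.01. With 1 or 2 estimated Epi reads for each of these genes, their intervals overlap and the order among them is not resolved. Over the listed lengths *Gnat3* would have about 8 Epi reads and *Lgr5* about 4, and the intervals would still overlap. An Epi RPKM of 0.02 or less was common, in 3006 gene rows, but only 31 of these had a CvP RPKM above 10. Of those 31, *Nov* had the highest CvP RPKM.

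The 5 gene rows most like *Nov*, by Euclidean distance in log2(RPKM + 0.1) over the 2 libraries, were *Gng13*, *Trcg1*, *Mme*, *Gnb3* and *Gnat3*, at distances from 0.26 to 0.71. *Gng13* and *Gnb3* encode G protein subunits that act with gustducin in taste cells. *Gng13* had 77.39 RPKM in the CvP and was listed at 0 in the Epi, *Trcg1* had 64.97 and was listed at 0, and *Gnb3* had 104.07 and 0.07. Likeness over 2 libraries says only that these genes share a level in each tissue.

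**Figure D2:**
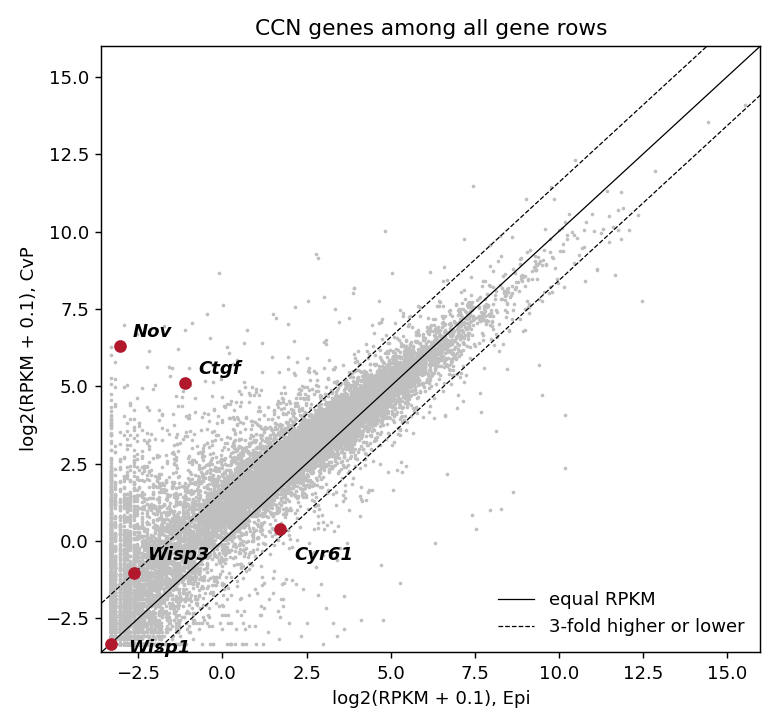
Each point is 1 of 18043 gene rows, at log2(RPKM + 0.1) in the Epi (horizontal) and CvP (vertical), with lines of equal RPKM (solid) and of a 3-fold difference on this scale (dashed). *Nov* and *Ctgf* lie far above the upper dashed line, *Cyr61* lies below the line of equal RPKM but not below the lower dashed line, *Wisp3* is near the foot of the cloud and *Wisp1* is at its corner.

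*Ctgf* occupies chromosome 10 from 24315248 to 24318488 on the plus strand. Its 33.94 RPKM in the CvP came from about 2314 reads (interval 32.6 to 35.3 RPKM) and its 0.36 RPKM in the Epi from about 24 reads (0.229 to 0.532). The ratio was 94.3, with an interval from 63.6 to 148, and *Ctgf* was number 51 of the same 5450 rows. With more Epi reads behind it, this ratio is fixed better than that of *Nov*. *Ctgf* was number 1597 of all gene rows in the CvP and number 11862 in the Epi. The exons of its transcript share 541 of 2403 bases with the antisense non-coding gene *Gm15270*, which has no row. Neither kit nor counting is said to keep strand, and on the shared stretch the reads of these 2 genes cannot be told apart.

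*Cyr61* occupies chromosome 3 from 145309935 to 145312949 on the minus strand, in 5 exons of 2028 bases, the same length as the table lists. It had 1.2 RPKM in the CvP, about 69 reads (interval 0.933 to 1.52 RPKM), and 3.20 RPKM in the Epi, about 181 reads (2.75 to 3.70). The Epi level was 2.67 times the CvP level, with an interval from 2.01 to 3.57. The 2 level intervals do not overlap. Most genes went the other way: in the 10218 gene rows that reached 1 RPKM in both libraries the median CvP/Epi ratio was 1.32, with 75.9% above 1. Divided by this median, the CvP/Epi ratio of *Cyr61* fell from 0.375 to 0.285, that of *Ctgf* was 71.6 and that of *Nov* was 2970.

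The sequence upstream of *Cyr61* is shown because *Cyr61* was the only member that could be matched to one. That sequence carries the letters by which TEAD factors are usually recognised. It is the 250 bases before the transcription start in RefSeq (*Ccn1*, GRCm38.p6, minus strand, chr3:145649986-145650235), with the motif matches in capitals:
*Cyr61* upstream: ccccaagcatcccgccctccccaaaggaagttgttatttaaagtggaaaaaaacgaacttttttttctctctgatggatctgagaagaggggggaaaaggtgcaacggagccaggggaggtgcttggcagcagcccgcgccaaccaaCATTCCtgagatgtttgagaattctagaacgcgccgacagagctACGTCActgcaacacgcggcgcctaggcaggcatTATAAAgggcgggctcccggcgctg

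The capitals mark, from the 5′ end, CATTCC (the core of the TEAD motif, 103 bases before the start), ACGTCA (the core of the cyclic AMP response element, 59 bases before) and TATAAA (the TATA box core, 25 bases before). The 3 motifs were searched on both strands, were picked after the sequence had been read, and do not overlap one another. Of 32851 RefSeq promoter windows of the same length, 12.6% held CATTCC, 6.47% ACGTCA and 12.4% TATAAA. The upstream sequence of *Wisp3* held none of the 3. *Nov*, *Ctgf*, *Wisp1* and *Wisp2* were not matched. A match is a description of these letters and not evidence of a bound site.

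*Wisp1* (chromosome 15, 66722955 to 66754761, plus strand) was listed at 0 RPKM in both libraries. A count of 0 reads over its exon model allows a level of up to 0.0211 RPKM in the CvP against 0.0214 in the Epi, the worth of 3 reads, so no transcript was detectable at this depth. *Wisp3* (chromosome 10, 38870777 to 38883600, minus strand) was at 0.39 RPKM in the CvP against 0.06, from about 16 and 2 reads. The interval of its ratio of 6.50 ran from 1.85 to 70.5, which excludes 1 but does not fix the size. The exon model listed for *Wisp3* is 3.32 times its spliced transcript. Counted over that length, the reads would be about 52 and 8 and the interval 3.02 to 15.6. Its transcript shares 88 exon bases with *Tube1* on the other strand, which had 2.18 RPKM in the CvP against 0.48 in the Epi and whose reads could have been counted on it. *Wisp3* is therefore read as a low transcript in both tissues.

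In order of level, the CvP had *Nov*, *Ctgf*, *Cyr61*, *Wisp3* and *Wisp1*, and no 2 neighbours in this order had overlapping Poisson intervals. The Epi had *Cyr61*, *Ctgf*, *Wisp3*, *Nov* and *Wisp1*. There the intervals of *Cyr61* and *Ctgf* stood apart from each other and from the rest, while those of *Wisp3*, *Nov* and *Wisp1* overlapped. Added over the 5 genes with a row, CCN transcripts came to 113.86 RPKM in the CvP against 3.64 in the Epi, 31.3 times as much in the papilla. *Nov* made up 68.8% of this sum in the CvP and *Ctgf* 29.8%. In the Epi, *Cyr61* made up 87.9% and *Ctgf* 9.89%. Because the set was chosen for the ratio of *Nov*, the total and these shares partly restate that choice and were not tested.

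*Ctgf* and *Cyr61*, which YAP activates together in many cells, stood in opposite proportion in the 2 libraries. *Ctgf* was 28.3 times as high as *Cyr61* in the CvP. *Cyr61* was 8.89 times as high as *Ctgf* in the Epi. The cause of this difference was not tested. No window of 75 bases, the length of a read, was identical in any 2 of the 5 transcripts. The closest windows, of *Nov* and *Ctgf*, differed at 14 bases.

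A gene is called here where its higher library reached 1 RPKM and the levels differed by over 3-fold, the fold the study used. Of the 4 members with a row, *Nov* and *Ctgf* were called higher in the CvP and none was called lower. *Cyr61* reached the minimum but not the fold, and *Wisp1* did not reach the minimum. Among the 12253 gene rows that reached 1 RPKM in a library, 15.6% were called higher in the CvP and 1.8% lower. With the study's own stricter minimum, a CvP RPKM above 10, and the same ratio, *Nov* and *Ctgf* also passed. So did 432 gene rows in all, or 2.39%. The paper reports a larger number of genes under these criteria, and the difference was not examined. Because these ratios chose the set, nothing is read from its share. At a limit of 2-fold *Cyr61* would be called lower, as were 3.5% of the 12253 rows.

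The chromosomal neighbours of the members were compared next. The nearest gene row before *Nov*, *Mal2* at a distance of 143 kb, had 68.03 RPKM in the CvP against 102.4 in the Epi. The nearest after it, *Enpp2*, which encodes the lysophospholipase autotaxin, lies 85.1 kb away and had 5.23 RPKM in the CvP against 0.10, a ratio of 52.3. *Ctgf* lies between *Moxd1*, at 16.02 and 26.49 RPKM, and *Enpp1*, at 4.72 and 2.44. *Cyr61* lies between *Znhit6*, at 3.79 and 3.53, and *Ddah1*, at 1.01 and 1.29. Of these 6 neighbours of *Nov*, *Ctgf* and *Cyr61*, *Enpp2* was the only one past 3-fold. *Wisp1*, listed at 0, lies next to *Ndrg1*, which had 53.15 RPKM in the CvP against 35.49 in the Epi at a distance of 6.12 kb. On its other side, 40.7 kb away, *Tg*, which encodes thyroglobulin, had 0.04 and 0.51 RPKM and was 12.8-fold lower in the CvP, with both levels under the minimum for a call.

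Transcripts of most receptors of CCN proteins were detected in both tissues. Of 17 receptor genes, all with a row, 15 reached an RPKM of 1, 5 were called higher in the CvP and none lower, where 15.6% of the 12253 gene rows were called higher and 1.8% lower. The counts of the lists that follow have the same background. In any list, and in the background, a gene that reached the minimum through the CvP alone could only be higher there. Among the receptors called higher, *Itga5*, *Itgam* and *Itgb2* were such genes. *Itgb1*, the integrin beta 1 chain shared by many CCN receptors, had 70.32 RPKM in the CvP against 16.13, a ratio of 4.36 (interval 4.14 to 4.60). *Itga5*, its fibronectin receptor partner, had a ratio of 7.48 (5.30 to 11.1), and *Itgb6*, an epithelial integrin that activates TGF-beta, one of 5.67 (4.75 to 6.79). *Itgam* (4.47) and *Itgb2* (3.83) are the chains of a leukocyte integrin. The receptor with the highest level was the proteoglycan *Sdc4*, at 96.32 and 61.79 RPKM. *Notch1*, a receptor that NOV can bind, had 16.48 and 13.21, and *Itga6* had 43.43 and 18.35. *Itgb3* was at 0.06 and 0.07 RPKM. The median log2 ratio of the 15 was 0.64, against 0.51 for all 12253 gene rows, both with a pseudocount of 0.1.

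Of 10 extracellular or membrane partners of CCN proteins, 8 reached an RPKM of 1. *Fbln1*, a matrix protein that binds NOV, was called higher in the CvP at 18.54 and 2.79 RPKM. *Hspg2*, the basement membrane proteoglycan perlecan, was called higher at 3.92 and 0.81, and the growth factor *Tgfb1* at 5.52 and 1.63. *Dcn*, which encodes the proteoglycan decorin, was called lower at 26.07 and 127.62. *Gja1*, the gap junction protein connexin 43 to which NOV binds, had the highest level of the list, at 178.08 and 337.48 RPKM, and was not called. The median log2 ratio of the 8 was -0.23.

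The other targets of YAP and TEAD had lower ratios than *Ctgf*, which belongs to a set chosen by ratios in these same libraries. Their highest ratio was that of *Rbms3*, with an interval from 5.15 to 7.80 that covers counting error only. The part of YAP in these levels was not tested. Of 21 such genes, 18 reached an RPKM of 1, 3 were called higher in the CvP and none lower, and their median log2 ratio was 0.24. For this list the share called higher was near the 15.6% over all gene rows. Those called were *Rbms3* (ratio 6.31), *Dock5* (4.96) and *Axl* (3.13, interval 2.75 to 3.56), the last with an interval that includes the limit. *Ankrd1*, one of the targets most used beside *Ctgf* and *Cyr61*, had 0.04 RPKM in the CvP against 0.08 in the Epi. *Amotl2*, another, had 11.51 and 21.75. The genes of highest level were *F3*, the coagulation factor receptor, at 79.29 and 75.17, *Igfbp3* at 18.08 and 32.64, and *Jub* at 22.14 and 19.01.

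All 20 listed genes of the Hippo pathway itself reached an RPKM of 1, with 3 called higher in the CvP, none called lower and a median log2 ratio of 0.31. The share called higher was near the 15.6% over all gene rows. The ratios ran from 0.529 (*Amotl2*) to 40.4 (*Amot*). *Yap1* had 32.34 RPKM in the CvP against 27.71 in the Epi, and *Wwtr1*, which encodes the related co-activator TAZ, had 15.86 and 16.57. The most abundant TEAD gene, *Tead3*, had 18.50 and 21.71. *Amot*, which encodes the YAP-binding protein angiomotin, was at 6.47 and 0.16 RPKM, and the interval of its ratio ran from 28.4 to 59.9. *Tead2* was called at 2.88 and 0.40, and *Sav1*, an adaptor of the kinase cascade, at 13.54 and 4.21.

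**Figure D3:**
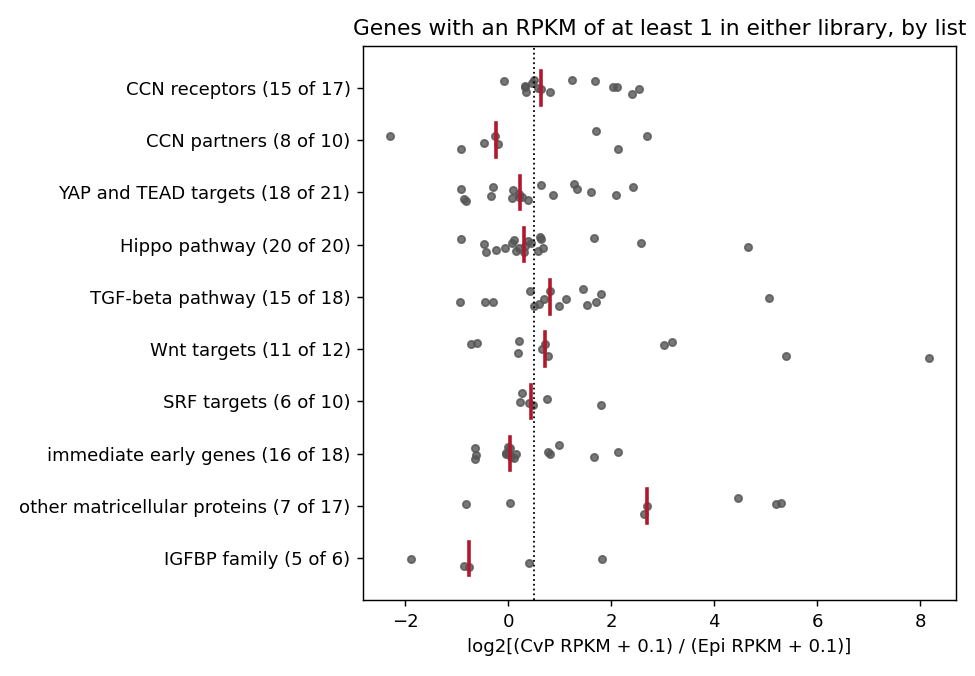
Log2 CvP/Epi ratio, with a pseudocount of 0.1 RPKM, of the listed genes that reached 1 RPKM in a library. Each point is a gene, red bars are list medians, the dotted line is the median of all 12253 such gene rows (0.51), numbers give genes shown of genes with a row, and of the lists drawn the other matricellular proteins have the highest median (2.69), over genes of which some reached the minimum through the CvP alone.

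Among matricellular proteins outside the family, some were also far higher in the CvP. Of 17 with a row, 7 reached an RPKM of 1 and 10 did not, and 5 were called higher in the CvP, with none lower, against 15.6% and 1.8% over all gene rows. *Thbs1*, which encodes thrombospondin 1, had 13.44 RPKM in the CvP against 0.27, a ratio of 49.8 (37.0 to 68.8). *Tnc*, which encodes tenascin C, had 37.72 and 0.86, a ratio of 43.9 (37.6 to 51.2), and *Fbln2* had 18.57 and 0.74, a ratio of 25.1. *Fbln1* (6.65) and *Smoc2* (6.30) were the others called. *Sparc* had 2.54 and 4.54 RPKM, and *Postn*, which encodes periostin, had 0.03 and 0.17. A gene that reached the minimum through the CvP alone had to be higher there, so the median of the 7, 2.69, describes those genes only.

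Genes of TGF-beta signalling, which induces *Ctgf*, gave 15 of 18 at an RPKM of 1 or more, 3 called higher, none lower and a median log2 ratio of 0.82. *Tgfb3*, a ligand, had 9.55 RPKM in the CvP against 0.19, a ratio of 50.3 (31.5 to 84.9). *Ltbp4*, which holds the latent ligand in the matrix, had 34.99 and 9.97, and *Tgfb1* a ratio of 3.39. *Tgfbi*, a target, had 11.43 and 15.60 RPKM. Of 12 Wnt target genes with a row, 11 reached the minimum and 4 were called higher, namely *Lgr5*, *Nkd1* (ratio 247, from 2 Epi reads), *Nkd2* (11.1) and *Notum* (8.32). None was called lower, and the median log2 ratio of the 11 was 0.72. *Axin2*, a widely used target, had 2.73 and 2.35 RPKM.

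*Cyr61* and *Ctgf* are also immediate early genes, which rise within minutes of tissue handling. Of 18 others, 16 reached an RPKM of 1, 2 were called higher (*Nr4a1*, ratio 5.55, and *Fos*, 3.25), none was called lower and the median log2 ratio was 0.04. *Klf4* had the highest level, at 163.86 and 255.73 RPKM. *Egr1* had 16.67 and 15.02, and *Junb* 51.42 and 50.10. Of 10 targets of SRF, a factor that also acts on *Cyr61*, 6 reached the minimum and *Tpm1* was called higher (ratio 3.52), with none lower and a median log2 ratio of 0.45. In the IGFBP family, whose N-terminal module CCN proteins share, 5 of the 6 genes with a row reached the minimum. *Igfbp4* was called higher at 15.66 and 4.37 RPKM and *Igfbp2* lower at 40.85 and 151.76, and the median log2 ratio of the 5 was -0.75.

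The tissue labels were checked with cell type markers. All 11 taste cell markers were called higher in the CvP, with a summed level of 544 RPKM in the CvP against 6.19 in the Epi. Keratinocyte markers were high in both, and 7 of their 8 were not called. *Nov* and *Ctgf* are well known from fibroblasts, vessels and cartilage. Of 9 fibroblast markers 1 was called higher and 1 lower (*Dcn*), and the collagens *Col1a1*, *Col1a2* and *Col3a1* were at 0.04 to 0.06 RPKM in the CvP and 0.17 to 0.25 in the Epi. Other fibroblast markers moved with *Nov* and *Ctgf*. *Pdgfra*, a growth factor receptor, had 1.30 RPKM in the CvP against 0.07, a ratio of 18.6 (10.5 to 34.9). *Fbn1*, which encodes the microfibril protein fibrillin 1, had 0.96 and 0.01, a ratio of 96.0 (30.0 to 432) under the minimum for a call, and *Twist2* had about 17 reads in the CvP and was listed at 0 in the Epi. Cartilage markers were at 0.32 RPKM or lower in both libraries apart from *Sox9* (3.46 and 0.74), which other epithelia also express. Smooth muscle and pericyte markers were at 2.25 RPKM or lower, with 1 of 7, *Des*, called lower in the CvP. Each fibroblast, cartilage, smooth muscle and pericyte marker with a row, apart from *Dcn*, lay below the CvP level of *Nov* in both libraries. So did each taste cell marker apart from *Gnat3* and *Krt8*. Levels of different genes do not show which cells express *Nov*.

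Of the 6 endothelial markers with a row, *Vwf* (4.45 and 0.09) and *Tek* (2.49 and 0.07) were called higher in the CvP, while *Cdh5*, *Kdr* and *Tie1* were at 0.14 RPKM or lower in both. Glial and nerve markers ranged from 0.13 to 10.29 RPKM in the CvP and from 0 to 8.94 in the Epi, with 2 of 8 called higher. Immune markers moved with *Nov* and *Ctgf*: 5 of 8 were called higher, with a summed level of 158 RPKM in the CvP, most of it *Lyz2*, and 6.95 in the Epi. In the other direction, 7 of 8 skeletal muscle markers were called lower in the CvP, with sums of 5.24 and 56.4, as were 5 of 9 salivary gland markers, with sums of 21.4 and 420, while the gland markers *Pigr* and *Aqp5* were called higher. The part of these cells in the levels of *Nov*, *Ctgf* and *Cyr61* was not tested.

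**Figure D4:**
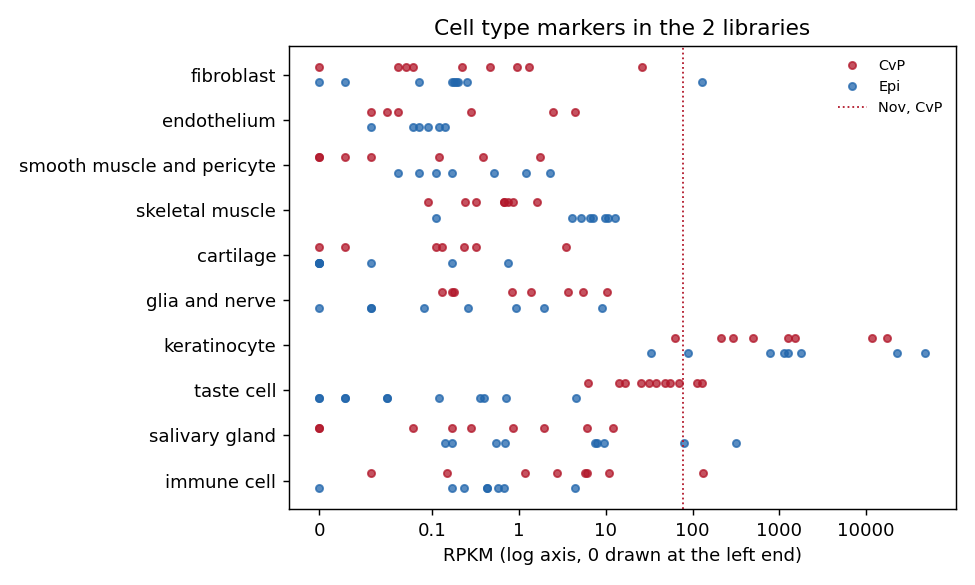
RPKM (log axis, 0 drawn at the left end) of each listed cell type marker in the CvP (red) and Epi (blue), with the CvP level of *Nov* (78.33) as a dotted line. Of the taste cell markers, *Gnat3* (127.11) and *Krt8* (112.64) lie above the line in the CvP and the rest below it. All of them lie below 5 RPKM in the Epi. Most keratinocyte markers and, in the CvP, the immune marker *Lyz2* (131.64) also lie above the line. Fibroblast markers other than *Dcn* and all endothelial, smooth muscle and cartilage markers lie below the line in both.

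In the annotation that the authors deposited with the table, *Nov*, *Cyr61* and *Wisp1* share the molecular function of insulin-like growth factor binding, and *Ctgf* and *Wisp3* do not carry the term. The term was on 15 gene rows, of which 11 reached an RPKM of 1. Those called higher in the CvP were 3, *Nov*, *Igfbp4* and *Igfals* (1.77 and 0.14 RPKM), and 1 was called lower, *Igfbp2*. Over all 12253 gene rows at this minimum, 15.6% were called higher and 1.8% lower. *Nov* was chosen for its ratio, so its call adds nothing here and nothing is read from the count. *Nov* was the highest of the 15 in the CvP, and *Igfbp2* was the highest in the Epi.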

How the data were processed

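RNA was sequenced from 2 libraries of mouse tongue, 1 per tissue. The authors mapped single-end reads of 75 bases with Bowtie 0.12.7 to NCBI37/mm9 and used ERANGE to derive RPKM, and the deposited table gives RPKM, exon model length and position per row. ERANGE's options and the treatment of reads with several matches are not given in the sources used here. The authors' column of the CvP/Epi ratio was not used.

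The members, the gene lists and the call rule were chosen with earlier results of these data known. Ratios are quotients of the deposited RPKM with no pseudocount. Depth was read from the RPKM step in the 163 rows of 0.1 kb. Reads were estimated over the table's length or, where shorter, over the gene's longest GENCODE M1 coding transcript, and intervals (95%, exact) and floors (3 reads) cover counting error only. Calls need an RPKM of at least 1 and a ratio above 3. List medians are of log2(RPKM + 0.1) ratios, which understate low genes. Named were the members, their neighbours by ratio, likeness and position, and in each list genes of highest level or largest called ratio. *Ankrd1*, *Amotl2*, *Wwtr1*, *Tead3*, *Notch1*, *Itga6*, *Sparc*, *Postn*, *Itgb3*, *Fbn1*, *Twist2*, *Tgfbi*, *Axin2*, *Egr1*, *Junb* and *Igfals* were added for their role or after their values were seen. Some listed genes are not reported here by name. The depth estimate and the intervals were tested on simulated data. Python 3.11.15, numpy 2.4.6, pandas 2.3.3, scipy 1.17.1 and matplotlib 3.10.9 were used.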

Additional observations from a re-analysis of the deposited data

How the results depend on the processing

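No paired analysis was possible because a tissue has a single pooled library and no test was run. With a pseudocount of 1 RPKM the CvP/Epi ratios were 77.8 for *Nov*, 25.7 for *Ctgf*, 0.524 for *Cyr61* and 1.31 for *Wisp3*, and with 0.1 RPKM that of *Nov* was 654. A pseudocount pulls a ratio towards 1 most where a level is low. No ratio changed direction under the pseudocounts, division by the median ratio or rescaling to a common sum. The members called higher in the CvP were 2 under all 7 alternatives. Those called lower were 0, but 1 (*Cyr61*) with a ratio above 2 and after division by the median ratio. The listed pathway genes called higher, counted once per list, were 30, and 37 with a ratio above 2, 17 above 5, 21 after division by the median ratio and 20 at a minimum RPKM of 5. Division by the median ratio took *Itgb2*, *Tgfb1*, *Axl*, *Sav1*, *Ltbp4*, *Tpm1*, *Fos* and *Igfbp4* below 3-fold. Those called lower were 2, or 0 with a ratio above 5. Over all gene rows 1908 were called higher and 221 lower, and 1473 and 348 after division by the median ratio. Ratios above 2 and 5 gave 3439 and 1214 higher and 429 and 130 lower, and a minimum RPKM of 5 gave 777 and 141.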
